A study of Mus musculus with 4 samples.

Results

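The VEGF and angiopoietin systems were followed through 10 genes, chosen by name, of the 33696 gene features counted in nuclei of photothrombotic (PT) brain lesions at 21 days post-injury (dpi). They were 3 ligands of the VEGF family, Vegfa (ENSMUSG00000023951), Vegfc (ENSMUSG00000031520) and Vegfd (ENSMUSG00000031380), and their receptors Flt1 (ENSMUSG00000029648), Kdr (ENSMUSG00000062960) and Flt4 (ENSMUSG00000020357). The others were the angiopoietin ligands Angpt1 (ENSMUSG00000022309) and Angpt2 (ENSMUSG00000031465), their receptor Tek (ENSMUSG00000006386) and the related orphan receptor Tie1 (ENSMUSG00000033191). PT injury is a focal cortical injury made by lighting a photosensitive dye in the blood. A library labelled control was made from wild-type mice, and a library labelled Cxcl12-cKO from mice carrying Col1a2(creER) and Cxcl12(flox), in which tamoxifen, given in repeated courses after injury, lets a Cre recombinase driven by the collagen gene Col1a2 act in fibroblasts. Each library pooled 1 male and 1 female adult mouse and held 75% lesion and 25% parenchyma nuclei, tagged by region before mixing, so there was 1 library per genotype and no test between genotypes was possible.

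Vascular endothelial growth factors are secreted proteins that guide the growth and permeability of vessels. VEGFA acts through the receptors encoded by Kdr, which carries most of the growth signal in blood endothelium, and Flt1, which binds VEGFA tightly and also acts as a decoy. VEGFC and VEGFD act mainly through Flt4, the receptor best known from lymphatic endothelium, and through Kdr after they are cut by proteases. Angiopoietin 1, made by cells around vessels, activates the TEK receptor on endothelium and keeps vessels stable, while angiopoietin 2, stored and released by endothelium, often opposes it. TIE1 pairs with TEK and modulates its signalling.

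All 5 receptor genes were highest in endothelial-like nuclei, and their upstream sequences are shown because ETS factors, which bind a GGAA core, are a family well known in endothelial genes. The sequences are the 250 bases before the RefSeq start in build GRCm38.p6, which is not the GRCm39 build of the counts, 5′ to 3′ on the strand of the gene, with each GGAA, or TTCC on the other strand, in capitals.
Flt1: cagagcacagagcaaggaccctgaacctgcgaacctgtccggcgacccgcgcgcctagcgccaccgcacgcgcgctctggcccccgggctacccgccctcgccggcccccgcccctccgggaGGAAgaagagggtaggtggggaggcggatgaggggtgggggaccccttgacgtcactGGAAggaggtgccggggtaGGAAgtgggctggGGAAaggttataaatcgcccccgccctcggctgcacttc
Kdr: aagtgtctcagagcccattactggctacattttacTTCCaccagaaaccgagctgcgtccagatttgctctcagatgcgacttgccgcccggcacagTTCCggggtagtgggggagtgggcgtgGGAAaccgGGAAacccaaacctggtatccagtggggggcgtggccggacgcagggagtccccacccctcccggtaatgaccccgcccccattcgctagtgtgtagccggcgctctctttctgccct
Flt4: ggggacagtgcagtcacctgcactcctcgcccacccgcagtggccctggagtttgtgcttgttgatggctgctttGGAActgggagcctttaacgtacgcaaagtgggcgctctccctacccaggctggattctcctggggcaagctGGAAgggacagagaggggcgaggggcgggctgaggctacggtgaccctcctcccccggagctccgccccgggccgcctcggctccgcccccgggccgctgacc
Tek: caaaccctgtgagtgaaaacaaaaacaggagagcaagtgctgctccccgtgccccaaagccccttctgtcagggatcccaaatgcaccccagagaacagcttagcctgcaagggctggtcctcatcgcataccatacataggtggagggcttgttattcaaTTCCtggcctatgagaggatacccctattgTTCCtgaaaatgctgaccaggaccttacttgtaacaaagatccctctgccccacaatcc
Tie1: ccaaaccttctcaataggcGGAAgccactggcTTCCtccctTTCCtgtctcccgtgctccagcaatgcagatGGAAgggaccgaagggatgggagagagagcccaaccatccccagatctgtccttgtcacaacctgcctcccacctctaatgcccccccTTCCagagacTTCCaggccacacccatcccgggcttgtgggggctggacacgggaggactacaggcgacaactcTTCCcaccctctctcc
The windows lie at chr5:147726012-147726261 on the minus strand for Flt1, chr5:75978456-75978705 on the minus strand for Kdr, chr11:49609429-49609678 on the plus strand for Flt4, chr4:94739039-94739288 on the plus strand for Tek and chr4:118489850-118490099 on the minus strand for Tie1. Tie1 held 7 cores, and 3.82% of the 32851 promoters of this length held at least as many. Flt1 and Kdr held 4 each (at least as many in 33.4% of promoters) and Flt4 and Tek 2 each (76.8%). The ligand genes were not lower as a group: Vegfa held 6 (8.69%) and 2 at different RefSeq starts, Vegfd 3 and Vegfc 1. The core is short and 93.4% of all promoters held it, with a median of 3, so these counts describe letters and not binding sites.

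After filters, 21743 of 23489 barcodes were kept, with 7933 to 8095 nuclei per lesion and 2838 to 2877 per parenchyma. The median nucleus held 2962 to 2975 unique molecular identifiers (UMIs, single captured transcripts) in the lesions and 15915 to 16648 in the parenchyma, so levels were compared as CPM, the UMIs of a gene per 1000000 UMIs of the summed nuclei. Brackets give exact 95% Poisson intervals of a level or exact binomial intervals of a share or ratio, which cover counting error only. UMIs near the 3′ end carry no length correction, so levels were compared across cells and not between genes. The sex-linked transcripts of both mice of a library were found together in 9.75% to 14.3% of the nuclei of each matrix, and 47 barcode sequences occurred in both libraries. Cxcl12 itself ran against the labels: lesional fibroblast-like nuclei of the library labelled Cxcl12-cKO held 216 CPM [209–224], against 106 CPM [101–111] for the library labelled control. The sources used here do not give the stretch that was deleted, so counts near the 3′ end do not check the deletion, and every library difference below is between libraries as they were labelled. Classes were named "-like" from marker genes that included none of the 10, and the 10 genes took no part in the clustering; neurons and myeloid nuclei were named the same way. A group of 68 nuclei with endothelial, mural and fibroblast genes, of which 38.2% held both mice's transcripts, is left out of the order of levels, as is a mixed glial group of 253 nuclei (43.5%).

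Flt1, which encodes VEGF receptor 1, was found mainly in vessels. It reached 3027 CPM [2874–3187] in 182 endothelial-like nuclei, of which 90.7% held a UMI, and these nuclei, 0.837% of all, held 51.6% of its UMIs. The next named classes were mural-like nuclei at 253 CPM [184–338] and myeloid nuclei at 47.7 CPM [43.9–51.7]. Astrocyte-like nuclei at 15.4 CPM [11.3–20.6] and fibroblast-like nuclei at 7.88 CPM [6.90–8.96] were far lower. Excitatory neurons, deeper by far with a median of 17203 UMIs against 2200 in endothelial-like nuclei, held 0.973 CPM [0.780–1.20] and a UMI in 1.06% of nuclei. T-cell-like nuclei read 28.2 CPM from 11 UMIs, which lay in 0.465% of the 215 nuclei, a single nucleus.

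Kdr and Flt4 were also highest in endothelial-like nuclei, but unlike Flt1 they were at or near 0 UMIs in mural-like nuclei. Kdr, the main signalling VEGF receptor, was at 406 CPM [351–467] in endothelial-like nuclei, with a UMI in 49.5% of them. No other named class exceeded the 8.11 CPM [6.58–9.88] of myeloid nuclei, whose interval overlapped that of fibroblast-like nuclei at 7.10 CPM [6.17–8.13]. Because fibroblast-like nuclei made up 38.5% of all nuclei, they nevertheless held 210 of the 619 Kdr UMIs, against 196 in endothelial-like nuclei. Flt4 was at 89.0 CPM [64.4–120] in endothelial-like nuclei and at 0 UMIs in T-cell-like, ependymal-like, mural-like and oligodendrocyte-like nuclei, where 3 UMIs, the limit taken for a count of 0, would be 7.70, 17.4, 16.8 and 2.79 CPM. Fibroblast-like nuclei, with far more UMIs behind the value, held Flt4 at 0.473 CPM [0.259–0.794]. Lymphatic markers were sparse in the endothelial-like nuclei, with 8 UMIs of Prox1, 3 of Lyve1 and 4 of Ccl21a beside 21 of Mmrn1 and 39 of Reln, whereas all 9 markers of blood endothelium were present, from Cdh5 at 333 CPM to Mecom at 3661 CPM.

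Tek and Tie1, the angiopoietin receptor pair, were likewise endothelial. Tek was at 780 CPM [703–863] in endothelial-like nuclei, 70.9% of which held a UMI, and Tie1 at 240 CPM [198–288]. Mural-like nuclei held 4 UMIs of Tek and 2 of Tie1. Outside the vessels Tie1 stayed at or below 2.57 CPM in every named class, while Tek stood at 11.1 CPM [10.5–11.8] in excitatory neurons, 8.34 CPM [7.07–9.77] in inhibitory neurons and 7.81 CPM [6.83–8.88] in fibroblast-like nuclei. The intervals of the latter pair overlap. Neurons are numerous and deep, so excitatory neurons held 52.7% of all Tek UMIs, more than endothelial-like nuclei.

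**Figure D1:**
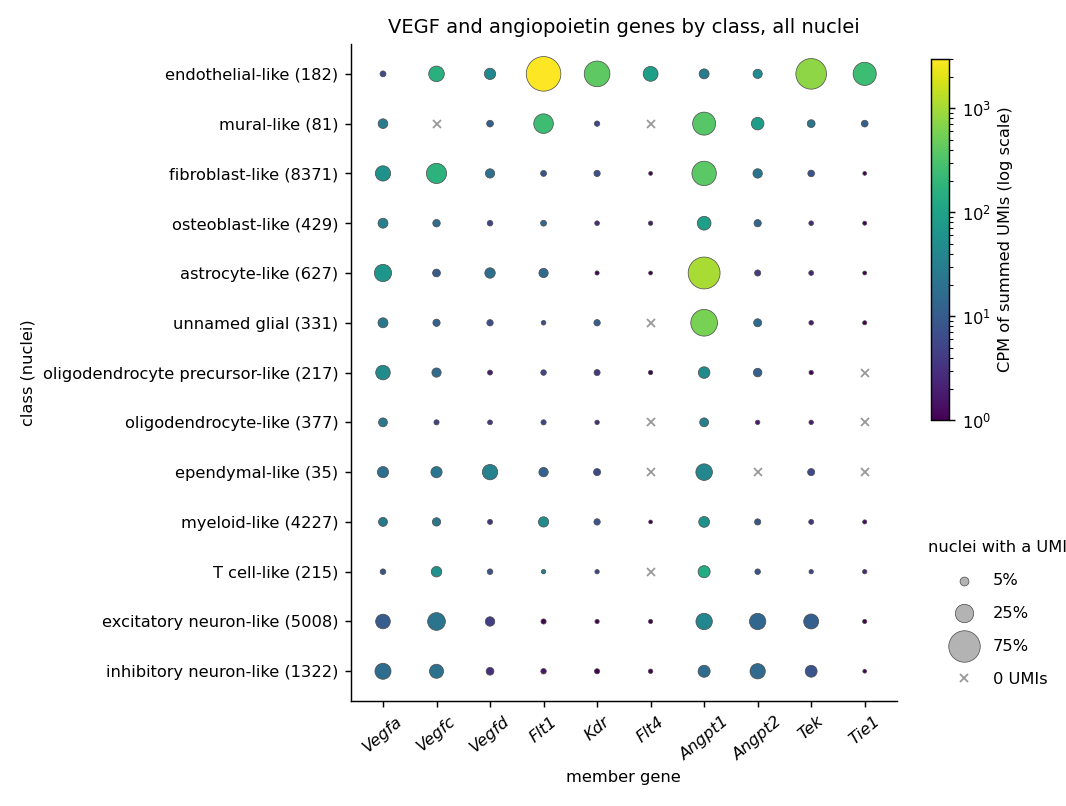
Level of each of the 10 genes (columns) in each class (rows, with the number of nuclei), over both libraries and regions. Dot colour gives CPM on a log scale and dot size the share of nuclei with a UMI. The 5 receptor genes peak in the endothelial row, from 3027 CPM for Flt1 to 89.0 CPM for Flt4, while Angpt1 peaks in astrocyte-like nuclei at 1051 CPM and Vegfc in fibroblast-like nuclei at 171 CPM.

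The endothelial-like nuclei fell into a Plvap-led group of 102 nuclei, all from the lesion, and a Slc38a5-led group of 80 nuclei, 59 from the lesion and 21 from the parenchyma. Each is called by a gene among its 10 leading ones within the vascular nuclei, though not by the first. Enpp6, Chrm2, Cmah, Slco2a1, Epb41l4a and Fam111a came before Plvap. Before Slc38a5 came Col6a6, Pglyrp1, Rab11fip1, Slc19a3, Adh1 and Gsta4. The list nearest to the Plvap-led group among vascular nuclei was that of lymphatic endothelium, which it did not meet. Plvap builds the diaphragms of leaky, fenestrated capillaries and Slc38a5 is an amino acid transporter of barrier vessels. The Plvap-led group held less Flt1, 2564 CPM [2367–2773] against 3499 CPM [3266–3744], and more Kdr, 492 CPM [408–589] against 317 CPM [250–397]. Tek (730 and 831 CPM) and Tie1 (226 and 255 CPM) had overlapping intervals, as did Flt4, at 115 CPM [76.3–166] on 28 UMIs against 62.6 CPM [35.1–103] on 15. Angpt2, the destabilising ligand, was nearly all in the Plvap-led group, with 21 UMIs at 86.1 CPM [53.3–132] against 1 UMI at 4.18 CPM [0.106–23.3]. Vegfc was also higher there, at 238 CPM [181–308] against 87.7 CPM [54.3–134], whereas Vegfd leaned the other way, at 20.5 CPM [6.66–47.9] against 62.6 CPM [35.1–103] with overlapping intervals. Most of the Angpt2 and Vegfc of the Plvap-led group came from the library labelled control, with 18 UMIs in 64 nuclei against 3 in 38 for Angpt2 and 45 against 13 for Vegfc.

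Region could be read within the Slc38a5-led group alone, on fewer nuclei than the minimum of 50. Its Flt1 level was 3308 CPM [3006–3632] in lesional and 5586 CPM [4436–6943] in parenchymal nuclei of the library labelled control, the latter from 8 nuclei. In the library labelled Cxcl12-cKO it was 2747 CPM [2360–3179] in the lesion and 5204 CPM [4366–6156] in the parenchyma, from 15 and 13 nuclei. Flt1 was thus lower in lesional nuclei in both libraries, with intervals apart, a comparison made after the values were seen. Tek did not move the same way, at 713 CPM against 621 CPM for the control label and 1129 CPM against 804 CPM in the other, with overlapping intervals in each.

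The 4 mice could be told apart by their sex-linked transcripts, and lesional endothelial-like nuclei then gave 42 and 33 nuclei for the control female and male and 21 and 14 for the Cxcl12-cKO female and male. Flt1 was 2633, 2836, 2961 and 2574 CPM in that order, with all 4 intervals overlapping. Kdr was 613, 369, 425 and 300 CPM, and Flt4 191, 63.0, 110 and 31.6 CPM, the latter on 19, 7, 8 and 2 UMIs. Both read higher in the female of each library, but the female and male intervals overlapped within each library. Tek was 502 CPM [373–662] in the control female and 936, 1042 and 884 CPM in the other 3 mice, whose intervals lay above it. Tie1 was 241, 216, 219 and 332 CPM with overlapping intervals. Vegfc varied widely, at 372 CPM [262–513] in the control female, 108 CPM in the control male, 174 CPM in the Cxcl12-cKO male and 0 UMIs in the Cxcl12-cKO female.

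**Figure D2:**
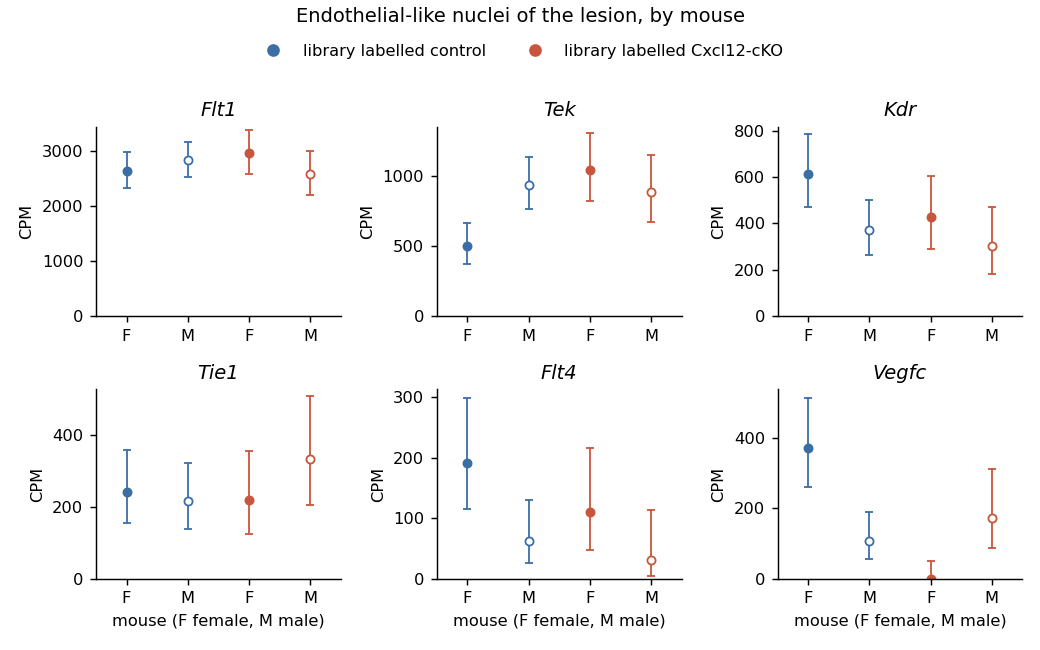
CPM (y axis, linear from 0) of the receptor genes and Vegfc in lesional endothelial-like nuclei of the 4 mice, female (F) and male (M), coloured by library; bars are exact 95% Poisson intervals. Flt1 lies between 2574 and 2961 CPM in the 4 mice, while Tek is low and Vegfc high in the control female.

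Flt1 was also found in cells next to endothelium. Of the receptor UMIs of mural-like nuclei, 45 of 52 (86.5% [74.2–94.4]) were Flt1, against 66.7% [64.6–68.6] of 2195 in endothelial-like nuclei. Mural-like nuclei are the pericytes and smooth muscle that wrap vessels; the 52 pericyte-like nuclei, led by Atp13a5, held Flt1 at 352 CPM [251–479] and the 29 Myh11-led nuclei at 77.6 CPM [25.2–181]. Endothelial markers were present beside it: their sum of 9 genes was 853 CPM in lesional pericyte-like nuclei (242 for the library labelled control, 1791 for that labelled Cxcl12-cKO), against 10230 CPM in lesional endothelial-like nuclei. Flt1 in those pericyte-like nuclei was 308 CPM [169–517] and 507 CPM [284–836] respectively. In the parenchyma, where 7 of the 9 endothelial markers were at 0 UMIs in pericyte-like nuclei, Flt1 was at 445 CPM [192–876] in 9 nuclei of the library labelled control and 145 CPM [29.8–423] in 9 of the other. The part of endothelial RNA in the lesional values was not tested.

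Among myeloid nuclei, Flt1 was highest in the 1803 nuclei like homeostatic microglia, the resident macrophages of brain tissue, at 72.6 CPM [64.8–81.2]. A group of 1530 macrophage nuclei held 24.7 CPM [20.2–29.9]. This group met 3 of 5 markers of border-associated macrophages and 3 of 6 of scar-associated macrophages, its leading genes were Mamdc2, Fabp4 and F13a1 among others, and a clustering that kept the 10 genes split such nuclei into 1367 of the scar-associated and 223 of the border-associated kind, so it is called Mamdc2-led here. The 9 endothelial markers summed to 27.6 CPM in the microglia-like and 40.9 CPM in the Mamdc2-led nuclei. Flt1 made up 89.6% [85.9–92.6] of the 347 receptor UMIs of microglia-like nuclei. Kdr did not separate these states, at 6.77 CPM [4.54–9.73] and 7.13 CPM [4.81–10.2]. A further 632 myeloid nuclei met no marker list and stood at 48.6 CPM. Their 8 fibroblast markers summed to 2975 CPM, against 255 to 262 CPM in the former groups, and 26.9% of these nuclei held transcripts of both sexes. Across the 4 mice, in the order above, lesional myeloid Flt1 was 45.7, 42.5, 54.8 and 47.3 CPM with overlapping intervals.

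Angpt1, the stabilising TEK ligand, was spread over many classes outside endothelium. Astrocyte-like nuclei were highest at 1051 CPM [1014–1088], with a UMI in 77.0% of 627 nuclei and in 61.7% once every nucleus was thinned to 1500 UMIs. A glial group of 331 nuclei followed at 573 CPM [528–622]; it was left unnamed because it held markers both of astrocytes (5 of 6) and of oligodendrocyte precursors (4 of 6). Fibroblast-like nuclei at 390 CPM [383–397] and mural-like nuclei at 359 CPM [277–459] came next and did not differ beyond their intervals. Fibroblast-like nuclei, being numerous, held 55.2% of its 20895 UMIs. Endothelial-like nuclei, which carry its receptor, held 26.9 CPM [14.3–46.0], and homeostatic microglia-like nuclei 13.8 CPM [10.5–17.8]. Neurons were uneven: excitatory neurons held 39.5 CPM [38.2–40.8] and inhibitory neurons 16.4 CPM [14.6–18.4], and the 15 neuron subclusters with at least 50 parenchymal nuclei ranged from 1.95 to 209 CPM with a median of 21.5. The 2 highest were a subcluster led by 9330185C12Rik and Fermt1 and a subcluster led by Oprk1 and Car3, both at 209 CPM. T-cell-like nuclei read 139 CPM [104–181] but held a fibroblast marker sum of 1181 CPM in the lesion, so this level was accompanied by fibroblast RNA, whose part was not tested.

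Angpt2, the context-dependent antagonist, was highest in mural-like nuclei at 84.2 CPM [47.1–139] on 15 UMIs and in endothelial-like nuclei at 45.5 CPM [28.5–68.9] on 22, with overlapping intervals. Fibroblast-like nuclei held 21.7 CPM [20.1–23.5], inhibitory neurons 15.2 CPM [13.4–17.0] and excitatory neurons 14.0 CPM [13.2–14.8]. The neuronal level was not above that of other nuclei: in the parenchyma neurons held 15.8 CPM [15.0–16.6] and nuclei that were neither neuronal nor vascular 17.3 CPM [11.4–25.1], and after thinning 2.28% and 2.13% of them held a UMI. In the lesion neurons held 2.91 CPM [2.08–3.97] and such other nuclei 15.9 CPM [14.8–17.1]. Angpt2 lies wholly inside Mcph1, a gene of the opposite strand, and the sources used here do not say whether counting used the strand. Mcph1 itself was at 76.6 CPM in parenchymal and 83.2 CPM in lesional neurons.

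Vegfa, the main angiogenic ligand, was spread over many classes and nearly absent from endothelial-like nuclei. Astrocyte-like nuclei at 67.0 CPM [58.1–77.0], fibroblast-like nuclei at 59.1 CPM [56.3–61.9] and oligodendrocyte-precursor-like nuclei at 47.9 CPM [35.8–62.9] formed the top of the order, with overlapping intervals between neighbours. Osteoblast-like, myeloid and oligodendrocyte-like nuclei followed at 30.6, 25.3 and 24.2 CPM. Of the 306 myeloid UMIs, 142 lay in the unnamed group with fibroblast genes, at 50.0 CPM. Microglia-like and Mamdc2-led nuclei held 18.7 and 18.5 CPM. Inhibitory neurons at 17.2 CPM [15.4–19.2] stood above excitatory neurons at 10.3 CPM (919 UMIs). Endothelial-like nuclei held 3 UMIs, 6.21 CPM [1.28–18.1], and the few mural-like nuclei held 5 UMIs.

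Vegfc, the lymphangiogenic ligand, was a fibroblast and endothelial gene. It reached 171 CPM [166–175] in fibroblast-like nuclei, 30.1% of which held a UMI, and 163 CPM [129–204] in endothelial-like nuclei, levels that did not differ beyond their intervals. Fibroblast-like nuclei held 63.1% of its 7998 UMIs. Mural-like nuclei held 0 UMIs (3 UMIs would be 16.8 CPM) and astrocyte-like nuclei 9.72 CPM [6.51–14.0]. Myeloid nuclei read 24.3 CPM, but 234 of their 294 UMIs lay in the unnamed group with fibroblast genes, and homeostatic microglia-like nuclei held 4.20 CPM [2.49–6.64]. Excitatory neurons held 22.1 CPM [21.1–23.1], and the same 15 parenchymal subclusters ranged from 0.811 to 37.2 CPM. Vegfd, its close relative, was low throughout: 41.4 CPM [25.3–63.9] in endothelial-like nuclei on 20 UMIs, 34.8 CPM [12.8–75.6] in ependymal-like nuclei on 6, 19.1 CPM [17.6–20.7] in fibroblast-like and 17.8 CPM [13.3–23.2] in astrocyte-like nuclei. Its fibroblast-like and astrocyte-like levels did not differ beyond their intervals.

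Lesional fibroblast-like nuclei were split into 4 large states, clustered without the 10 genes and the other genes of the pathway. A late inner state (2296 nuclei), a dural-like state (2259) and a leptomeningeal-like state (855) met marker lists. The largest (2804 nuclei), with Ptgds, Trpm3 and Egln3 among its leading genes, met none. It is called the Ptgds-led state here, although Sptssb led its ranking. Its nearest list was the leptomeningeal one, with 2 of 3 markers up and a mean log2 fold of 1.23. The ligands were not all highest in the same state. Angpt1 was 492 CPM [477–507] in the late inner, 553 CPM [538–569] in the dural-like and 405 CPM [382–430] in the leptomeningeal-like state, but 130 CPM [123–138] in the Ptgds-led state. Vegfc was instead highest in the Ptgds-led state, at 231 CPM [221–241], then in the late inner state at 172 CPM [163–181]. The dural-like (128 CPM) and leptomeningeal-like (126 CPM) states were alike within their intervals.

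Vegfa was highest in the leptomeningeal-like state at 94.8 CPM [83.6–107] and lowest in the dural-like state at 43.0 CPM [38.8–47.5], with the late inner state at 66.3 CPM and the Ptgds-led state at 59.4 CPM between them. Vegfd was lowest in the late inner state, at 6.74 CPM [5.11–8.74] against 16.7 to 25.5 CPM in the other 3. Angpt2 was lowest in the Ptgds-led state, at 8.03 CPM [6.26–10.1] against 22.3 to 35.9 CPM elsewhere. The few receptor UMIs of fibroblasts were uneven as well. Kdr was 18.0 CPM [15.3–21.0] in the Ptgds-led state, which held 157 of 204 Kdr UMIs in these 4 states, and 1.06, 2.78 and 4.82 CPM in the late inner, dural-like and leptomeningeal-like states. The 9 endothelial markers summed to 504 CPM in the Ptgds-led state and to 457, 490 and 293 CPM in the other 3. This sum includes Cdh5, which had 161 of its 2773 UMIs in endothelial-like nuclei, so it does not count endothelial RNA alone. The part of endothelial RNA in Kdr was not tested. Tek was between 7.90 and 9.06 CPM in 3 states and 1.48 CPM [0.404–3.79] in the leptomeningeal-like state.

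Other genes of the pathway also divided these states. Nrp2, a co-receptor for VEGFC, was 506 CPM [491–521] in the Ptgds-led state and 70.2 to 134 CPM in the other 3. Nrp1, a co-receptor for VEGFA, was lowest there, at 265 CPM against 501 to 631 CPM. Egln3, an oxygen-sensing hydroxylase that marks HIF for removal, was 162 CPM [154–171] there and 21.5 to 25.9 CPM elsewhere, but it is among the genes that lead this cluster in a ranking taken after clustering. Hif1a, the oxygen-regulated transcription factor, was 201 CPM in the late inner and 197 CPM in the leptomeningeal-like state against 75.3 CPM in the Ptgds-led and 78.2 CPM in the dural-like state. Ccbe1, which helps activate VEGFC, was 1059 CPM in the dural-like and 1100 CPM in the leptomeningeal-like state, 641 CPM in the late inner and 350 CPM in the Ptgds-led state, so it was lowest where Vegfc was highest.

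**Figure D3:**
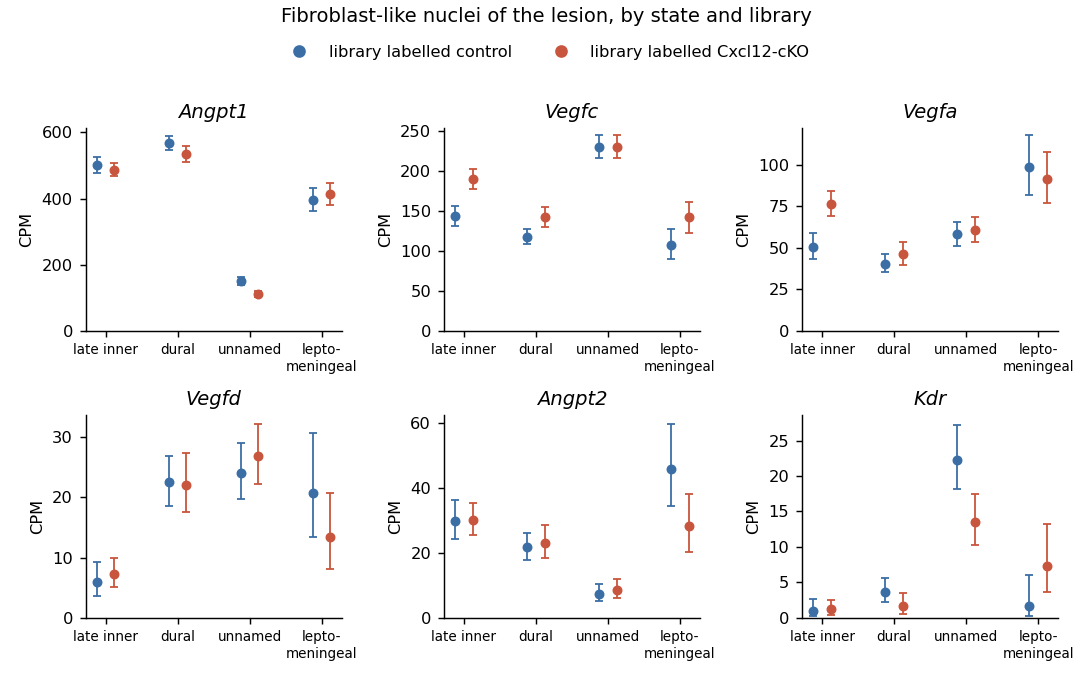
CPM (y axis, linear from 0) of ligand and receptor genes in the 4 large states of lesional fibroblast-like nuclei, by library, with the Ptgds-led state marked unnamed; bars are exact 95% Poisson intervals. The Ptgds-led state is lowest for Angpt1 (130 CPM over both libraries) and highest for Vegfc (231 CPM) and Kdr (18.0 CPM).

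Lesion and parenchyma were compared within each library, giving values for 2 genotypes. A gene entered a comparison with at least 50 UMIs in both groups together and was counted past 1.5-fold in either direction, with 0.5 UMI added to each sum. Astrocyte-like nuclei gave wide contrasts, although the parenchyma held only 37 and 44 of them, under the minimum of 50 set for the other classes, and the comparison was added after its values had been seen. Angpt1 was 1213 CPM in the lesion and 131 CPM in the parenchyma of the library labelled control, which is a log2 ratio of 3.18 [2.63, 3.86], and the library labelled Cxcl12-cKO gave 1188 and 128 CPM, with a ratio of 3.19 [2.69, 3.80]. Vegfa went the opposite way, at 59.3 CPM in the lesion and 163 CPM in the parenchyma of the library labelled control (log2 ratio -1.47 [-2.12, -0.77]) and at 47.6 and 159 CPM in the other (-1.75 [-2.33, -1.12]). Both of the 2 members that could be compared were past 1.5-fold in each library. Of all genes, 47.4% of 4331 were past it for the library labelled control and 48.9% of 5834 for the other, each library taken alone. Being past 1.5-fold was thus common and did not by itself set them apart.

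Part of this contrast was one of subclusters. An A2m- and Gfap-led subcluster of 480 nuclei, nearly all lesional, held Angpt1 at 1278 CPM and Vegfa at 41.6 CPM, while a Slc7a10-led subcluster of 147 nuclei, from both regions, held Angpt1 at 233 CPM and Vegfa at 159 CPM. Within the Slc7a10-led subcluster Angpt1 was still higher in the lesion, at 504 CPM [409–615] against 61.6 CPM [29.5–113] for the control label and 436 CPM [298–615] against 50.3 CPM, on 11 UMIs, in the other. Vegfa was not separated by region within it, at 165 CPM [113–232] against 185 CPM [125–264] and at 68.1 CPM [22.1–159] against 165 CPM [115–228]. Lesional Angpt1 of astrocyte-like nuclei was close in the 4 mice, at 1243, 1126, 1108 and 1205 CPM for the control female and male and the Cxcl12-cKO female and male. In the parenchyma, on 5 to 21 UMIs per mouse, it was 193, 80.9, 41.6 and 329 CPM. After thinning to 1500 UMIs, 69.3% of lesional and 12.3% of parenchymal astrocyte-like nuclei held an Angpt1 UMI. Flt1 was at 17.9 CPM [13.1–23.8] in lesional and 0 UMIs in parenchymal astrocyte-like nuclei. The endothelial marker sum was 319 CPM in the former and 14.6 CPM, with 6 of 9 markers at 0, in the latter. This sum includes Slco1a4, a leading gene of the A2m- and Gfap-led subcluster among glial nuclei, so it does not count endothelial RNA alone. The part of endothelial RNA in Flt1 was not tested.

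In neurons the members past 1.5-fold in both libraries were Angpt2 and Tek, both lower in the lesion. Excitatory neurons of the library labelled control held Angpt2 at 1.98 CPM in the lesion and 17.1 CPM in the parenchyma (log2 ratio -3.06 [-3.96, -2.38]), and their counterparts in the library labelled Cxcl12-cKO at 4.14 and 13.9 CPM (-1.70 [-2.67, -0.96]). Tek was 1.19 against 12.6 CPM (-3.33 [-4.54, -2.47]) and 2.87 against 12.3 CPM (-2.02 [-3.24, -1.16]). These were the only 2 of 6 members past 1.5-fold in both libraries in excitatory neurons. In single libraries 2 of 7 members were past it for the control label and 2 of 6 for the other. Of all genes compared, 28.4% and 30.9% were, so these counts alone are close to those of all genes. Most genes past it were also lower in the lesion, 3680 against 651 higher for the control label and 3676 against 953 for the other. Inhibitory neurons gave the same 2 of 5 members in both libraries. The log2 ratios were -2.60 and -1.54 for Angpt2 and -2.29 and -2.32 for Tek (the last turned to 0.54 in male nuclei and 0.12 after thinning). The lesional sums rested on 2 to 15 UMIs each. For the control label alone, 2 of 5 members were higher and 2 lower in the lesion past 1.5-fold, where 27.0% of all genes were past it. For the other label 0 of 5 were higher and 2 lower, where 30.2% of all genes were past it. Among all genes past 1.5-fold in inhibitory neurons, 2191 were lower and 773 higher in the lesion for the control label, and 2556 and 836 for the other.

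Neurons of the lesion are few (1017 against 5313), and an unnamed subcluster of 120 nuclei, 110 of them lesional, held transcripts of both sexes in 48.3% of them. Without it lesional neurons held Angpt2 at 2.56 CPM [1.74–3.63] and Tek at 1.57 CPM [0.944–2.45]. Angpt2 was lower in the lesion in 9 and Tek in 10 of the 10 neuron subclusters with at least 20 nuclei in each region. The 15 neuron subclusters with at least 50 parenchymal nuclei ranged from 12.1 to 21.9 CPM for Angpt2 and 8.15 to 15.9 CPM for Tek. For Tek, parenchymal nuclei that were neither neuronal nor vascular held 5.76 CPM [2.63–10.9], below the interval of parenchymal neurons, 11.3 to 12.7 CPM, whereas for Angpt2 they stood level with neurons. Excitatory neurons held 995 Tek and 87 Flt1 UMIs, endothelial-like nuclei 377 and 1463.

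**Figure D4:**
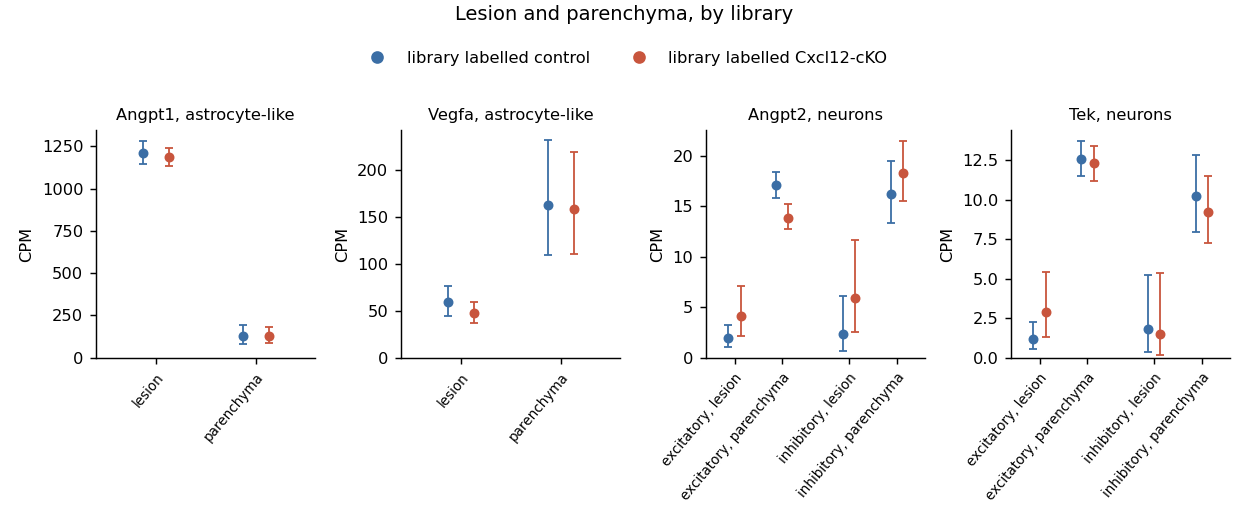
CPM (y axis, linear from 0) in lesion and parenchyma, by library, of Angpt1 and Vegfa in astrocyte-like nuclei and of Angpt2 and Tek in neurons; bars are exact 95% Poisson intervals. Astrocyte-like Angpt1 is 1213 and 1188 CPM in the lesions against 131 and 128 CPM in the parenchyma, and the other 3 genes are higher in the parenchyma in both libraries.

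Fibroblast-like nuclei were rare in the parenchyma, with 51 nuclei for the control label and 50 for the other, and their 8 fibroblast markers summed to 1403 CPM, against 4346 CPM in the lesion. Angpt1 was higher in lesional nuclei, at 406 against 183 CPM (log2 ratio 1.13 [0.70, 1.63]) and 381 against 164 CPM (1.20 [0.74, 1.74]). Vegfc was 158 against 89.4 CPM (0.79 [0.20, 1.54]) and 184 against 117 CPM (0.63 [0.09, 1.28]), but this turned to -0.02 at a clustering resolution of 0.5 for the control label and to -0.11 with classes from each nucleus' own markers and -0.15 in female nuclei for the other, and in both without percentile filters. Vegfd was lower, at 19.0 against 67.0 CPM (-1.86 [-2.56, -0.96]) and 17.9 against 56.3 CPM (-1.71 [-2.48, -0.68]). Vegfa, Flt1 and Kdr rested on 1 to 7 parenchymal UMIs, with log2 ratios of 0.89 and 3.22, -2.42 and -1.53, and -0.86 and -1.58. For the control label each of these 3 turned in sign under at least 1 other setting, Vegfa to -0.22 at resolution 0.5, Flt1 to 0.56 with own-marker classes and Kdr to 1.33 in female and 0.38 in male nuclei. In all, 6 of 8 members were past 1.5-fold the same way in both libraries, 3 higher and 3 lower in the lesion. Taken alone, the library labelled control had 3 of 8 members higher and 5 lower, where 51.3% of all genes were past 1.5-fold. The other had 3 of 8 higher and 3 lower, where 53.9% of all genes were. These shares are of single libraries and give no background for the count in both.

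The comparison of the libraries asked whether the 10 genes differed between the 2 libraries, given below with the library labelled Cxcl12-cKO first. Over 13 pairs of class and region, 43 of 130 gene values had at least 50 UMIs, and 7 were past 1.5-fold, in each case lower with the Cxcl12-cKO label. Without nuclei holding both sexes' transcripts 0 of 33 remained past it, and with at least 100 UMIs 1 of 34. The 7 fell in 5 comparisons. In lesional fibroblast-like nuclei, 1 of 8 members was past 1.5-fold, against 6.09% of all genes compared. This was Kdr, at 5.47 CPM against 8.58 CPM, a log2 ratio of -0.65 [-1.07, -0.23], which was -0.57 without nuclei of both sexes and 0.71 without percentile filters, where most fibroblast-like nuclei lost their name. By mouse it was 11.6 and 6.47 CPM in the control female and male and 6.30 and 5.12 CPM in the Cxcl12-cKO female and male, so the control female stood apart and the other 3 overlapped.

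Fibroblast ligands differed less but with narrow intervals. Vegfa was 65.5 against 53.7 CPM (log2 ratio 0.29 [0.15, 0.42]), Vegfc 184 and 158 CPM (0.22 [0.14, 0.30]) and Angpt1 381 and 406 CPM (-0.09 [-0.14, -0.04]). By mouse, in the order above, Vegfa was 50.1, 56.5, 71.4 and 60.0 CPM, Vegfc 157, 163, 175 and 198 CPM and Angpt1 384, 422, 406 and 363 CPM. Vegfa and Vegfc were thus higher in both Cxcl12-cKO mice than in both control mice, whereas Angpt1 was mixed. The margin was small, with the nearest mice at 56.5 and 60.0 CPM for Vegfa and at 163 and 175 CPM for Vegfc. By state, the Vegfa difference was widest in the late inner state, at 76.6 CPM [69.2–84.6] against 50.6 CPM [43.3–58.8], with 0.06 and -0.11 as log2 ratios in the Ptgds-led and leptomeningeal-like states. Vegfc followed with 190 against 144 CPM in the late inner state (0.41 [0.25, 0.57]) and 231 CPM in both libraries in the Ptgds-led state. Kdr of the Ptgds-led state was 13.5 against 22.3 CPM (-0.71 [-1.21, -0.24]) and its Angpt1 111 against 149 CPM (-0.43 [-0.61, -0.26]). The split of nuclei between states also differed, with 1294 against 1002 late inner nuclei and 973 against 1286 dural-like nuclei.

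In lesional endothelial-like nuclei, 1 of 5 members was past 1.5-fold, with 15.1% of all genes as background. It was Vegfc, at 96.1 CPM on 16 UMIs against 196 CPM on 54 (log2 ratio -0.99 [-1.93, -0.20]), and 37 of the control UMIs came from the female. The sign turned to 0.27 with own-marker classes and to 0.69 in male nuclei; without nuclei of both sexes it was -1.19, on fewer than 50 UMIs. Flt1 was 2794 and 2828 CPM, a log2 ratio of -0.02 [-0.19, 0.15]. Tek was 937 and 692 CPM (0.44 [0.12, 0.75]), Kdr 354 and 456 CPM (-0.36 [-0.84, 0.09]) and Tie1 258 and 221 CPM (0.23 [-0.37, 0.81]). Lesional T-cell-like nuclei gave 1 value of 1 past 1.5-fold, Angpt1 at 108 against 165 CPM (-0.59 [-1.51, 0.24]), with a background of 17.3%; this was 0.01 with nuclei weighted alike and 0.37 in female nuclei. Their fibroblast marker sum was 841 CPM and 1441 CPM in the same order.

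Lesional inhibitory neurons had all 3 of 3 members past 1.5-fold, in a comparison where 18.1% of all genes were. Angpt1 was 12.6 against 37.8 CPM (-1.55 [-2.45, -0.79]), Vegfc 17.8 against 31.8 CPM (-0.82 [-1.60, -0.11]) and Vegfa 12.6 against 22.2 CPM (-0.79 [-1.74, 0.05]). Each rested on 17 to 24 UMIs for the Cxcl12-cKO label, and without nuclei holding transcripts of both sexes the Angpt1 value was -0.21 and the Vegfc value -0.26. In male nuclei both turned, to 4.82 and 0.36. The mix of neurons also differed between the libraries. A striatal-like neuron subcluster held 46 lesional nuclei for the Cxcl12-cKO label and 7 for the control label, beside 138 and 139 lesional inhibitory neurons. The part of this mix in the ratios was not tested. Parenchymal inhibitory neurons had 0 of 5 members past 1.5-fold (background 3.72%). Parenchymal excitatory neurons had 1 of 7, Flt1 at 0.668 against 1.13 CPM (-0.75 [-1.52, -0.03]) but 0.87 in female nuclei, with a background of 3.66%, and lesional excitatory neurons 0 of 3 with a background of 6.95%.

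The other comparisons gave no member past 1.5-fold. Astrocyte-like nuclei of the lesion had 0 of 2 (background 8.54%), with Angpt1 at 1188 and 1213 CPM, a log2 ratio of -0.03 [-0.14, 0.08]. Myeloid nuclei had 0 of 6 (6.26%), with Flt1 at 50.7 and 44.7 CPM (0.18 [-0.07, 0.43]). Within them, the Mamdc2-led macrophage group held Flt1 at 31.0 CPM on 82 UMIs against 14.1 CPM on 22 (1.12 [0.45, 1.89]). Its level over both libraries was 36.0 CPM in female and 10.9 CPM in male nuclei, and the log2 ratio of the libraries 0.49 and 1.58. By contrast, microglia-like nuclei held 69.1 and 77.3 CPM (-0.16 [-0.49, 0.17]). Oligodendrocyte-precursor-like and osteoblast-like nuclei had 0 of 1 each (13.2% and 16.7%), as did parenchymal fibroblast-like nuclei (13.8%), and oligodendrocyte-like nuclei had no member with enough UMIs (10.2%).

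**Figure D5:**
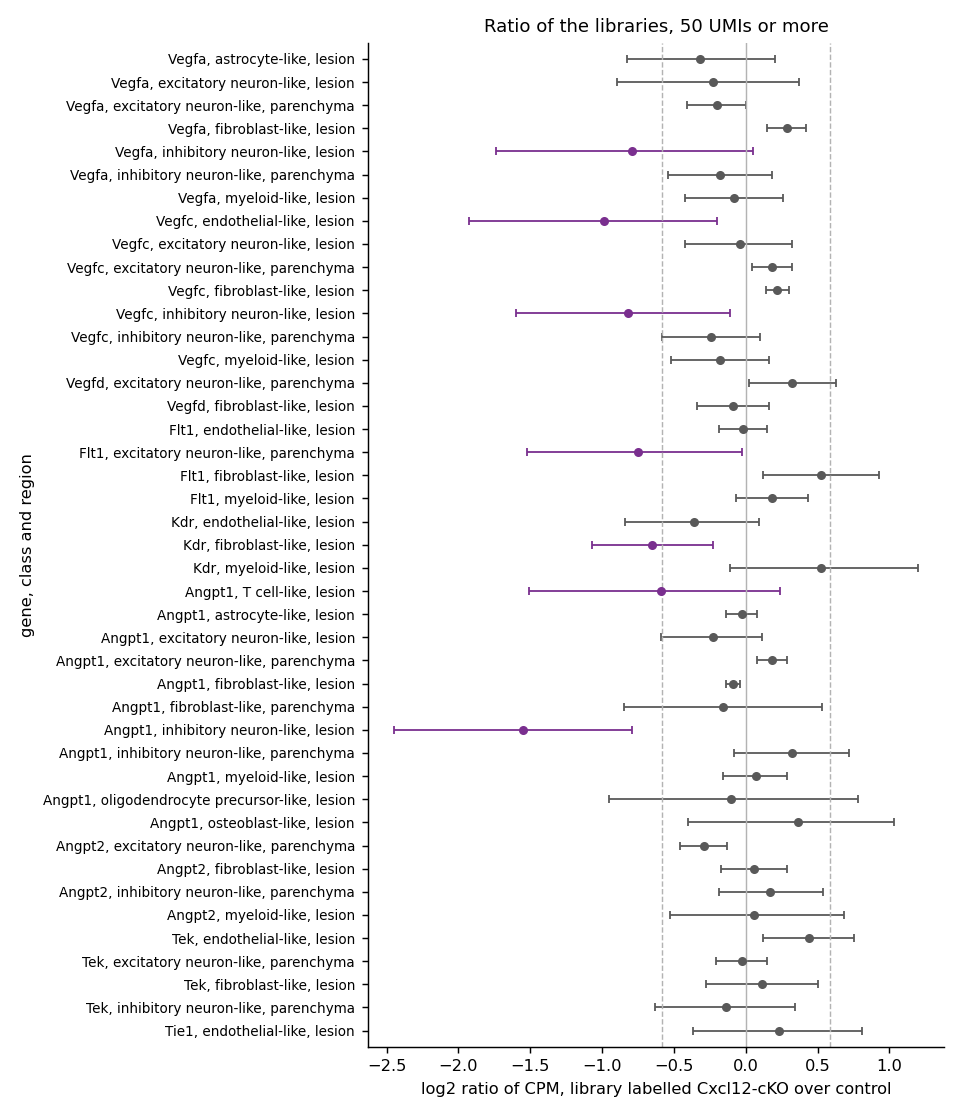
Log2 ratio of CPM (x axis), library labelled Cxcl12-cKO over library labelled control, for the gene, class and region values with at least 50 UMIs; bars are exact 95% binomial intervals and dashed lines mark 1.5-fold. The 7 values past 1.5-fold all lie on the lower side, and Flt1 in endothelial-like and Angpt1 in astrocyte-like nuclei lie at -0.02 and -0.03.

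Other genes of the 2 pathways, 23 in lists chosen by function, placed the members in context. Among co-receptors and the phosphatase that switches TEK off, Ptprb was endothelial at 2024 CPM [1899–2155], Nrp1 was highest in myeloid nuclei at 934 CPM [917–952] and Nrp2 in endothelial-like nuclei at 867 CPM [786–954]. Of the genes that process or bind ligands, Ccbe1 was 713 CPM [703–722] and Svep1, a matrix protein needed for lymphatic vessel growth, 62.4 CPM [59.6–65.3] in fibroblast-like nuclei. In oxygen sensing, Epas1, the HIF subunit prominent in endothelium, was 830 CPM [751–915] in endothelial-like and 472 CPM [376–584] in mural-like nuclei. Of the endothelial signalling genes, Foxo1, a transcription factor restrained by TEK signalling, was 497 CPM, Plcg1 217 CPM, Nos3 170 CPM and Aplnr 143 CPM in endothelial-like nuclei. Tip-cell genes were scarce there, with 12 UMIs of Esm1, 10 of Dll4 and 2 of Apln.

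Between libraries these lists moved little in the vessels. In lesional endothelial-like nuclei 0 of 3 co-receptor and phosphatase genes, 0 of 3 oxygen-sensing genes and 1 of 4 signalling genes that could be compared were past 1.5-fold, against the 15.1% of all genes, the last being Nos3 at 216 against 141 CPM (0.62 [-0.08, 1.31]). Median log2 ratios of the lists were 0.06, -0.07 and 0.28, beside -0.02 over all genes. In lesional fibroblast-like nuclei 0 of 3 other ligands, 0 of 3 co-receptor and phosphatase genes, 0 of 6 oxygen-sensing genes and 0 of 3 signalling genes were past it, against 6.09% of all genes, with medians of -0.01, -0.01, 0.10 and 0.11 beside 0.00 over all genes. Of 3 genes for ligand processing and binding (median 0.13) 1 was, Svep1, at 78.1 against 46.5 CPM (0.75 [0.61, 0.89]). Adamts3, a protease that cuts VEGFC, was 59.6 against 87.8 CPM (-0.56 [-0.69, -0.43]), Nrp1 480 against 410 CPM (0.23 [0.18, 0.28]) and Ccbe1 754 against 691 CPM (0.13 [0.09, 0.17]). Between regions, Hif1a of astrocyte-like nuclei was higher in the lesion by a log2 ratio of 1.75 in both libraries and Epas1 lower by ratios of -0.81 and -0.82. Ccbe1 of fibroblast-like nuclei was 691 against 53.6 CPM (3.63 [2.88, 4.64]) and 754 against 14.1 CPM (5.52 [4.20, 8.02]), on 12 and 3 parenchymal UMIs.

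Across 30 sums of class, region and library, the gene most like each member among 16390 genes was found by Pearson's r of log2(CPM + 1), a description in which sums share libraries and depth. For Flt1 it was Mecom (r = 0.906), an endothelial marker, followed by Adam15 and Pltp. Tek was most like Kcnq1 (0.885), C130074G19Rik and Esam, and Kdr most like Insr (0.889), Garre1 and Dcun1d3. Among ligands, Angpt1 was most like Gm973 (0.912), Mir99ahg and Ror1, Vegfc most like Trp53i11 (0.913), Foxp1 and Cdh5, and Vegfd most like Crim1 (0.929), Slco2a1 and Pir. Vegfa was most like Rabggtb (0.834), Ccdc84 and Rslcan18, and Angpt2, with the lowest values, most like Cd55 (0.743), Arl4a and Atg12. Trp53i11, which tracked Vegfc, is also among the leading genes of the Ptgds-led state. Flt4 and Tie1, with under 200 UMIs, were left out.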

How the data were processed

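Nuclei of the lesion and the parenchyma were profiled by single-nucleus RNA sequencing at 21 dpi, with 1 library per genotype pooled from 1 male and 1 female mouse. The authors deposited raw UMI counts per gene and nucleus, made with Cell Ranger 9.0.0 on GRCm39 per the labels, after assigning nuclei to a region by multiplexing tags; whether introns were counted is not stated in them.

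Nuclei outside 758 to 36243 UMIs or 585 to 6417 genes, the outer 2.5 percentiles, or over 8.75% mitochondrial UMIs were dropped. Counts were scaled to 10000 per nucleus and clustered without the 10 genes and 23 related genes (scanpy 1.11.5, leidenalg 0.10.2, 30 components, 20 neighbours, resolution 0.25). A cluster took a name where at least 3 markers of a list were up, in at least 5% of its nuclei. The mean log2 fold of the list had to be at least 0.5, and these thresholds were set after clusters had been seen. Vascular and glial subclusters also stayed unnamed where a second list had as many markers up, a rule not applied to other clusters. Doublets were not removed: Scrublet called 274 and 3 nuclei in the Cxcl12-cKO lesion and parenchyma and 259 and 2 in the control, so nuclei with Xist and Y-linked UMIs together were counted instead.

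UMIs were summed per class, region and library. Poisson and Clopper-Pearson intervals at 95% and conditional binomial intervals of ratios were exact (scipy 1.17.1). With 1 library per genotype no test was made and no p-value is given. Ratios were computed for all genes with at least 50 UMIs and called past 1.5-fold; the ratio script recovered known folds on simulated data. Shares were also taken after thinning to 1500 UMIs, which left out 1107 and 33 nuclei of the control lesion and parenchyma and 1067 and 50 of the Cxcl12-cKO. From each function list the 2 to 4 genes with most UMIs in a class were named. Members and lists were chosen with earlier results of these data known. Strand and overlap of genes came from an annotation of another build, without coordinates.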

Additional observations from a re-analysis of the deposited data

Results flagged for a closer look

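Vegfa was marked because its lesion to parenchyma difference ran in opposite directions in 2 classes in both libraries. In astrocyte-like nuclei its log2 ratio of lesion over parenchyma was -1.47 for the library labelled control and -1.75 for the other. In fibroblast-like nuclei the ratios were 0.89 and 3.22, on 6 and 1 parenchymal UMIs. The fibroblast-like ratio of the library labelled control turned to -0.22 at resolution 0.5 and to -2.27 without percentile filters, so the opposite direction was lost there. The difference between the classes was not tested.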

How the results depend on the processing

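No paired analysis was possible because each genotype had 1 library, and for the same reason no replicate could be left out. Under 16 other settings and 2 chosen after seeing the data, 399 of 508 levels stayed within the 95% interval of the value reported and 109 moved out of it. Of the log2 ratios, 247 of 292 between libraries and 318 of 360 between regions stayed within it, 35 and 30 moved out and 10 and 12 changed sign. The count between libraries, 7 of 43, became 13 of 67 with classes from each nucleus' own markers, 3 of 38 without the top 10% of Scrublet scores, 0 of 33 without nuclei holding both sexes' transcripts, 3 of 28 in female and 3 of 23 in male nuclei, 14 of 60 at 20 UMIs or more, 1 of 34 at 100 or more, 1 at a fold of 2, 2 of 18 after thinning and 4 of 40 without subclusters rich in nuclei of both sexes. The count between regions, 10 of 19, became 6 in female nuclei and 4 after thinning.

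Signs turned as follows, and the cause was not tested unless given. At resolution 0.5, Angpt2 in the leptomeningeal-like state between libraries was 0.96, and fibroblast-like lesion over parenchyma in the library labelled control was -0.22 for Vegfa and -0.02 for Vegfc. With own-marker classes, endothelial-like Vegfc was 0.27 between libraries, and fibroblast-like region ratios were 0.56 for Flt1 (control) and -0.11 for Vegfc (Cxcl12-cKO). Without percentile filters, Kdr was 0.71 in fibroblast-like nuclei and 2.47 in the Ptgds-led state, and region ratios were -2.27 for Vegfa and -1.58 and -0.79 for Vegfc; a cluster holding 4771 of the fibroblast-like nuclei then met no name, and none of these turned once it was counted as fibroblast. With nuclei weighted alike, T-cell-like Angpt1 was 0.01. In female nuclei, T-cell-like Angpt1 was 0.37, Flt1 of parenchymal excitatory neurons 0.87, and fibroblast-like region ratios 1.33 for Kdr (control) and -0.15 for Vegfc (Cxcl12-cKO). In male nuclei, endothelial-like Vegfc was 0.69, Vegfc and Angpt1 of lesional inhibitory neurons 0.36 and 4.82, and region ratios 0.38 for fibroblast-like Kdr (control) and 0.54 for Tek of inhibitory neurons (Cxcl12-cKO), which was 0.12 after thinning. Own-marker classes also lowered endothelial-like Flt1 to 308 CPM. Few UMIs limit Flt4, Tie1 and every parenchymal value outside neurons.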
